A study of Ginkgo biloba with 9 samples.

Results

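In leaves of Ginkgo biloba, 71 of 41309 listed genes were lowest, by a set margin, at the middle of 3 planting densities. They were selected on their measured levels in FPKM, which are fragment numbers divided by gene length and library size. A member reached 1 FPKM in 3 or more of the 9 libraries, had a mean under 1000 FPKM and a value above 0 in some library of every density. Its mean log2(FPKM + 1) lay at least 1 lower at the moderate density than at the control density and at the high density, and all 3 moderate-density libraries lay below all 6 others. The dip itself is therefore what the genes were chosen by, and it is given here as a description. What the choice did not use is the comparison of the high with the control density, together with gene length and the numbering of the genes. Abundance and the spread within a density entered through the limits above, and the dip lowers a member's mean over the 9 libraries.

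Leaves came from nursery-grown trees of the cultivar Fozhi, 2 years old at all densities. The control planting (CK) stood at 20 plants per square metre, the moderate one (MD) at 40 and the high one (HD) at 80, and each gave 3 libraries. Whether replicate libraries stem from different trees or from a pool is not stated in the labels. A p-value here therefore reflects the spread of replicate libraries, and that spread may be technical. Density and any other difference between the plantings, such as plot or plant lot, cannot be told apart.

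Close planting changes the light that reaches a leaf, since neighbouring plants absorb red light and reflect far-red light, which phytochrome receptors sense, and it raises competition for water and mineral nutrients. Ginkgo leaves are harvested for flavonol glycosides and for ginkgolides and bilobalide, the terpene trilactones known from this genus. The members carry only identifiers in the table, and a table of names was not used here. No function is given to any of them, leaf marker genes were not checked, and the members are described by their levels.

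Read numbers in genes, worked out from the steps of the FPKM values, were 19201627 to 22445283 per library in CK, 14703230 to 20206233 in MD and 15513498 to 18318055 in HD. The ranges overlapped between MD and the other densities. Of the 71 members, 61 were above 0 in every library. The other 10 were at 0 in at least 1 MD library. That 0 members were at 0 in a CK or HD library follows from the choice. It required all 3 MD libraries to lie below the 6 others. A library with 0 reads still allows up to 3, counting error only.

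Summed over the 71 members, the CK libraries had 1907, 1904 and 1873 FPKM, the MD libraries 584, 596 and 566, and the HD libraries 1777, 1749 and 1745. The mean sums of CK, MD and HD were 1895 ± 19.1, 582 ± 14.9 and 1757 ± 17.6 FPKM (SD, n = 3 each). The sums of a density stood close together. As a share of all summed FPKM, the members took 0.173% to 0.174% in CK, 0.0523% to 0.0551% in MD and 0.174% to 0.178% in HD. The HD sum was 92.7% of the CK sum, while the HD share of all FPKM was not below the CK share, because the summed FPKM of all genes was also lower in HD, at 996238 to 1001236, against 1082734 to 1097979 in CK. Of the members' summed FPKM, the 10 most abundant members made up 64.0%, 70.5% and 60.5% in CK, MD and HD. In RNA from whole leaves, fewer cells of a type and less RNA per cell cannot be told apart.

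**Figure D1:**
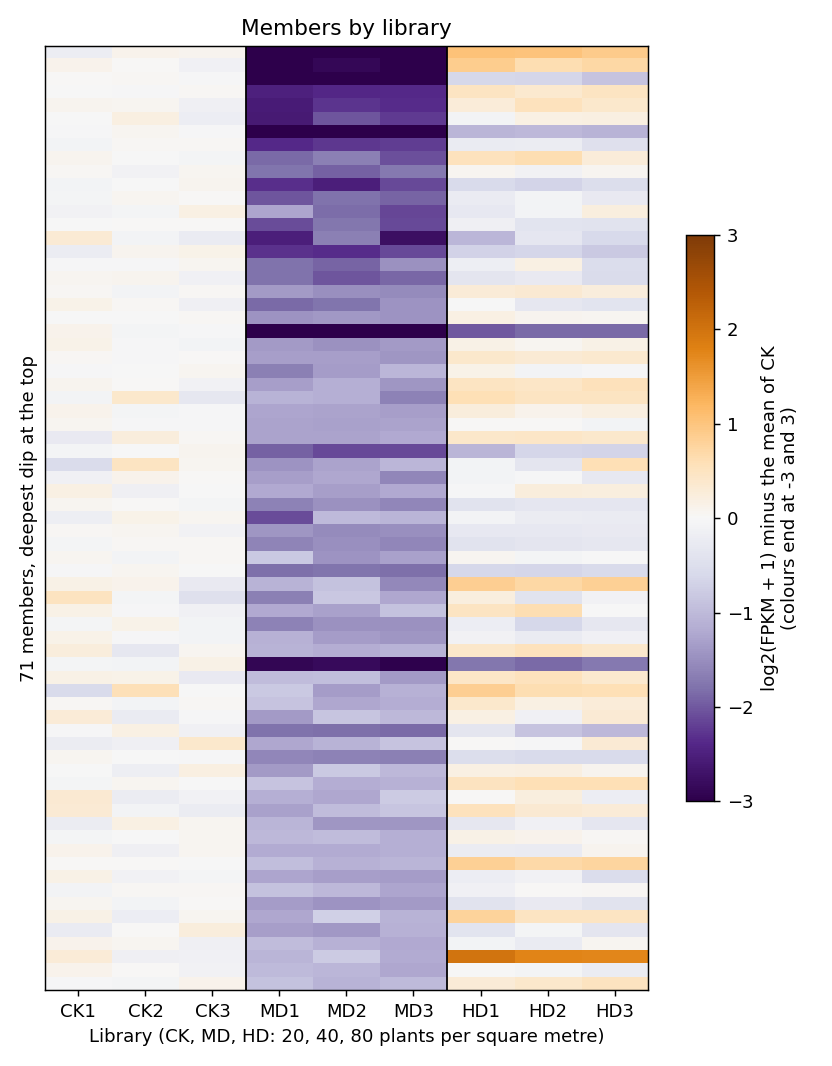
Each row is 1 of the 71 members and each column 1 library; colour gives log2(FPKM + 1) minus the member's CK mean, with rows ordered by the smaller of the differences CK minus MD and HD minus MD. The 3 MD columns are low in every row by the choice of the members, and the HD columns lie on both sides of CK, between -1.90 and 1.83 for the means.

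Most dips were moderate on the log2(FPKM + 1) scale. The smaller of a member's differences from MD, on the log2(FPKM + 1) scale, had a median of 1.20, with quartiles of 1.07 and 1.48 and a highest value of 4.81. It was under 1.5 in 53 members, 1.5 or more in 18 and 2 or more, which is 4-fold in FPKM + 1, in 7. This scale understates the dips of low genes. Gb_10829, at 1.40, had an MD mean of 5.02% of CK and 22.2% of HD. Gb_17374, with 2 reads in MD, stood at 1.08 with 0.995% of CK and 2.18% of HD. In FPKM, the MD mean of a member was between 0.196% and 47.4% of its CK mean (median 28.4%), and between 0.136% and 49.6% of its HD mean (median 26.9%). All 71 were called lower in MD than in CK and higher in HD than in MD (limma, adjusted p of at most 0.00592 and 0.00546). Of all 19854 tested genes, 18.6% were called lower in MD than in CK and 20.4% higher in HD than in MD. As the choice used both contrasts, the count of 71 says nothing beyond it.

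At the edge of the choice, Gb_09594 and Gb_29559 were the members just inside, each with a smaller difference of 1.001. Gb_09594 averaged 13.6, 6.29 and 18.1 FPKM in CK, MD and HD. For Gb_29559 the means were 144, 66.8 and 135 FPKM. The genes just outside had smaller differences of 0.984 and 0.966, with means of 7.56, 2.48 and 5.86 FPKM and of 24.7, 12.2 and 27.8 FPKM in the same order. Levels on either side of the threshold are thus alike, and the 71 are the upper end of a continuous range. Another 9 genes met the differences but not the limits on level, 8 of them at 0 in all 3 MD libraries and 1 above the limit of 1000 FPKM. The mirrored choice, genes highest at MD, held 147 genes.

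The 3 members with the deepest dips on the log2(FPKM + 1) scale were nearly silent at MD. The CK libraries had 25.4, 31.4 and 31.2 FPKM of Gb_15706, against 0, 0.240 and 0 in MD, and 61.5, 59.9 and 55.3 in HD. Gb_37972 had 7.59, 7.01 and 6.24 FPKM in CK, 0, 0.0761 and 0 in MD, and 13.5, 11.2 and 11.9 in HD. Gb_26293 had 8.90, 9.12 and 8.58 FPKM in CK, 0, 0.0521 and 0 in MD, and 5.37, 5.27 and 4.37 in HD. In each of these 3 genes, MD2 was the only MD library above 0. MD2 had the most reads of the MD libraries, 20206233, and the choice required some MD library above 0. In Gb_07430 and Gb_17585 the only such library was MD3, and in Gb_11333 it was MD1. The MD libraries together held 3 reads of Gb_15706, against 1105 in CK, which puts MD at 0.319% of CK (exact 95% interval 0.0658% to 0.936%). For Gb_37972, 2 reads in MD against 546 in CK gave 0.431% (0.0521% to 1.56%), and for Gb_26293, 2 reads against 1020 gave 0.231% (0.0279% to 0.836%). These intervals cover counting error only. The order of CK and HD differed among the 3: HD lay above CK without overlap in Gb_15706 and Gb_37972, and below it in Gb_26293.

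Gb_08604, next in depth on the log2(FPKM + 1) scale, dipped at a far higher level. It had 121, 120 and 126 FPKM in CK, 20.7, 22.5 and 22.5 in MD, and 172, 156 and 172 in HD. Its means were 122 ± 3.07, 21.9 ± 1.06 and 167 ± 8.96 FPKM (SD, n = 3 each), so that the MD level was 17.9% of CK and 13.1% of HD. With 294 to 441 reads in each MD library, this dip does not rest on low counts. Over the whole set, 8 members had at most 3 reads in the 3 MD libraries together and 16 had at most 20, whereas 39 had 100 or more. For members with so few MD reads, the MD level is an upper range more than a value, as in Gb_11333, whose single MD read against 102 in CK gave 1.15% with an interval of 0.0289% to 6.57%.

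**Figure D2:**
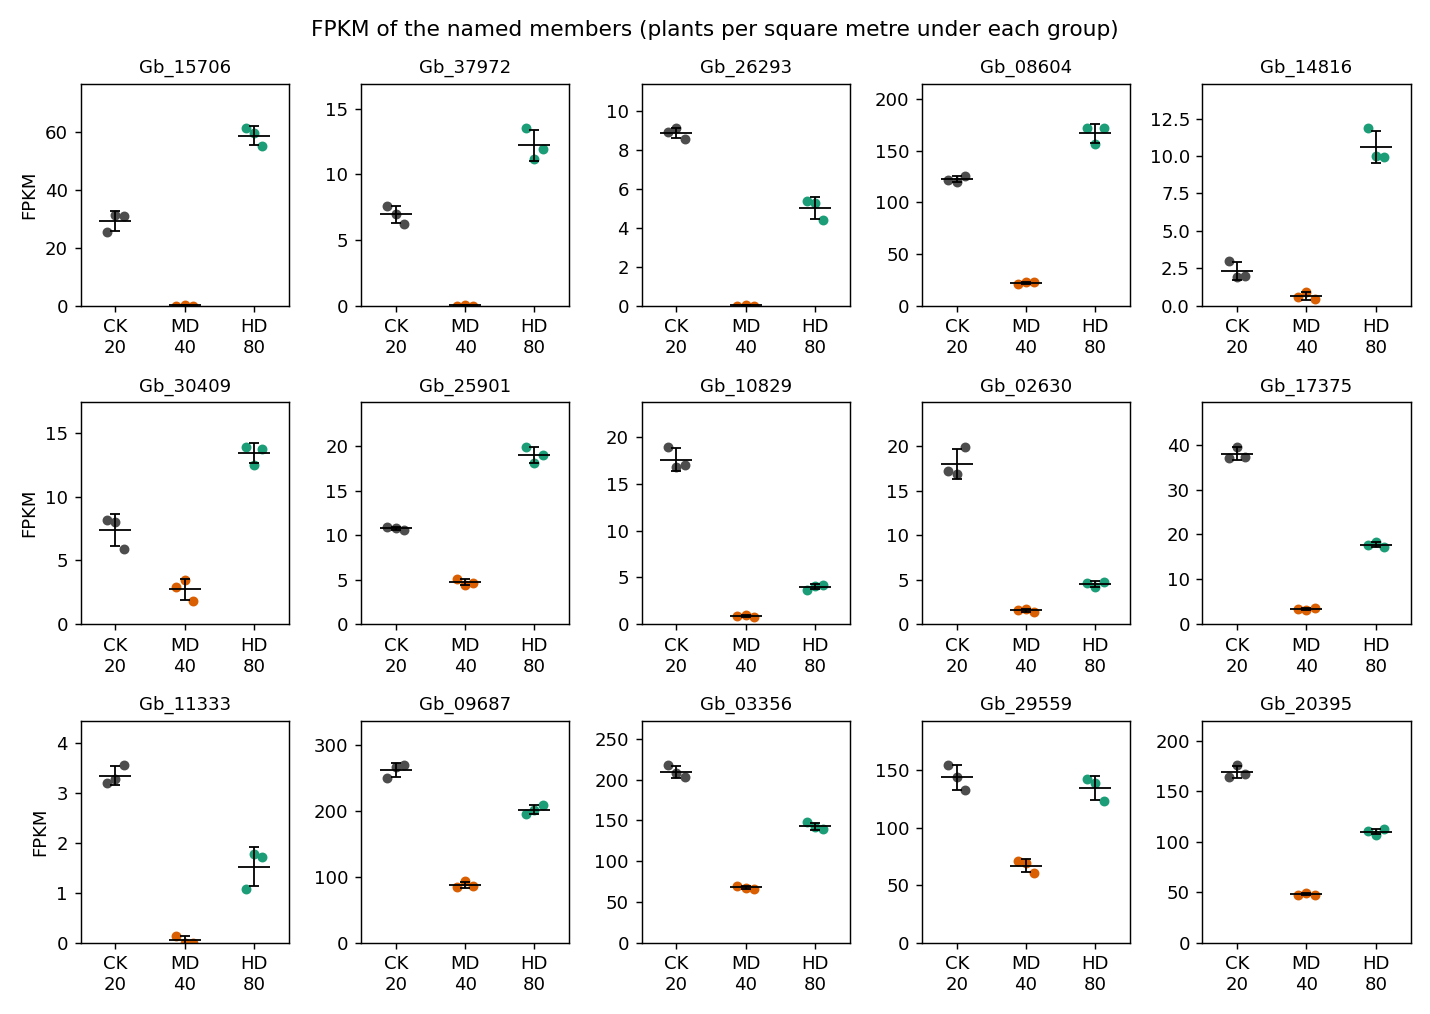
FPKM by density for 15 named members, each panel with its own axis from 0; points are libraries, and the bar and whiskers are the mean and SD of 3. The first 4 have the deepest dips, the next 3 and Gb_15706 the largest rises of HD over CK, the next 4 the largest falls of HD below CK, and the last 4 the highest mean level, from 109 to 184 FPKM.

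Between HD and CK, which the choice of members treats alike, the 71 genes went both ways. Relative to CK, HD was higher in 20 members and lower in 18, and 33 were not called (limma on log2(FPKM + 1), adjusted p under 0.05 over all tested genes). These are 28.2% and 25.4% of the members, against 25.4% higher and 26.6% lower among all 19854 tested genes, so the shares are near the background in both directions. The 3 HD libraries lay wholly above the 3 CK libraries in 22 members and wholly below them in 21, or 31.0% and 29.6%, where the tested genes had 29.6% and 30.1%. Differences of at least 1 on the log2(FPKM + 1) scale were called in 1 member upward and 3 downward (1.41% and 4.23%), and in 3.05% and 2.70% of the tested genes. This count leaves out called members beyond 2-fold in FPKM, such as Gb_15706 at 201% of CK and Gb_11333 at 45.5%. The median HD minus CK was 0.00 in the members and 0.00 in all tested genes, and the median size of the difference without its sign was 0.36 and 0.27. The median standard error was also larger in the members, at 0.116 against 0.097. Whether that accounts for the larger size was not tested.

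When libraries were scaled to their total reads instead, HD was higher than CK in 24 members and lower in 15. Among the 19871 genes tested under this scaling, 6385 were higher and 4202 lower, so the lean to higher calls was not particular to the members. Higher calls then made up 60.3% of all calls among tested genes, against 48.8% as deposited.

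In FPKM, the HD mean was between 22.6% and 462% of the CK mean, with a median of 99.8% and quartiles of 79.7% and 132%. The choice itself limited this difference on both sides, on the log2(FPKM + 1) scale: a member can be lower in HD than in CK by at most 1 less than CK minus MD, and higher by at most 1 less than HD minus MD.

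**Figure D3:**
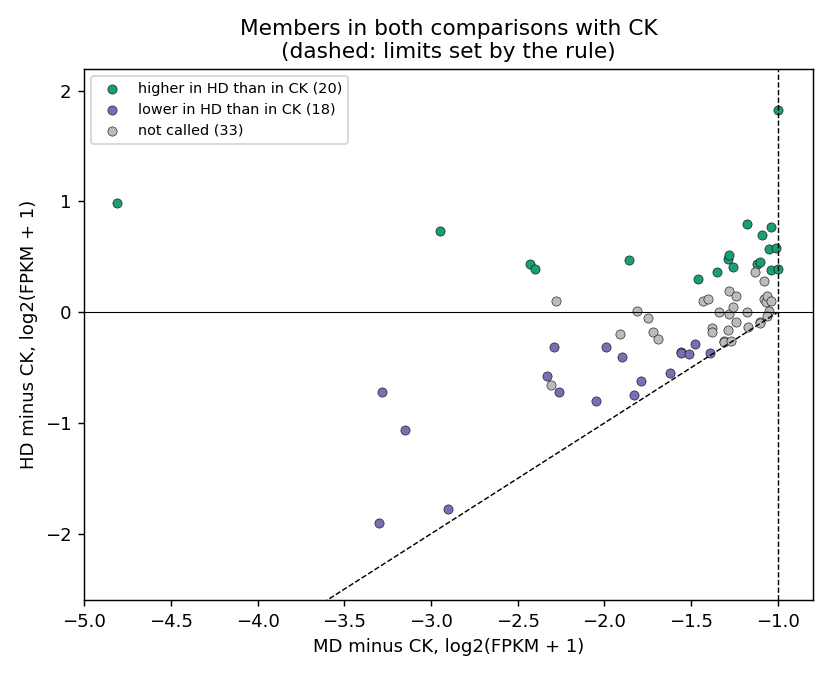
For each member, HD minus CK is plotted against MD minus CK, both on the log2(FPKM + 1) scale, with colours for the HD against CK call; dashed lines mark the limits that the choice of members sets. The 20 higher and 18 lower members lie on both sides of 0, and Gb_10829 and Gb_02630, at -1.90 and -1.78, lie lowest.

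The 20 members that were higher in HD had HD levels of 123% to 462% of CK (median 145%). Gb_14816 stood out among them, with 2.99, 1.93 and 1.96 FPKM in CK, 0.561, 0.905 and 0.442 in MD, and 11.9, 10.03 and 9.92 in HD. Its HD mean was 462% of the CK mean, a log2 difference of 1.83 (SE 0.155, adjusted p = 2.96e-06), while its difference between MD and CK only just met the threshold. In this gene CK lay nearer to MD than to HD. In Gb_15706 the HD level was 201% of CK (log2 difference 0.99, SE 0.109, adjusted p = 2.32e-05). Gb_30409 had 8.19, 7.97 and 5.90 FPKM in CK, 2.92, 3.43 and 1.83 in MD, and 13.9, 12.5 and 13.8 in HD, with HD at 182% of CK (0.80, SE 0.163, adjusted p = 0.00190). Gb_25901 had 10.9, 10.8 and 10.6 FPKM in CK, 5.09, 4.44 and 4.63 in MD, and 20.0, 18.1 and 19.0 in HD. At 177% of CK (0.77, SE 0.073, adjusted p = 7.35e-06), its 3 densities form separate bands with no overlap. Gb_37972 and Gb_08604, both among the deepest dips, were also higher in HD, at 176% and 136% of CK (adjusted p = 2.08e-04 and 3.03e-05).

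The 18 members that were lower in HD had HD levels of 22.6% to 81.5% of CK (median 66.9%). Gb_10829 had 19.0, 16.8 and 17.0 FPKM in CK, 0.868, 0.972 and 0.812 in MD, and 3.67, 4.12 and 4.15 in HD. Its HD mean was 22.6% of CK (log2 difference -1.90, SE 0.094, adjusted p = 4.61e-08). Gb_02630 had 17.2, 16.8 and 20.0 FPKM in CK, 1.54, 1.70 and 1.41 in MD, and 4.62, 4.19 and 4.77 in HD, 25.1% of CK (-1.78, SE 0.097, adjusted p = 9.67e-08). Both genes were low at both denser plantings and lowest at MD. Gb_17375 had 37.1, 39.6 and 37.3 FPKM in CK, 3.41, 3.21 and 3.63 in MD, and 17.6, 18.3 and 17.2 in HD, 46.5% of CK (-1.06, SE 0.065, adjusted p = 2.26e-07). Gb_11333 had 3.19, 3.27 and 3.55 FPKM in CK, 0.135, 0 and 0 in MD, and 1.06, 1.78 and 1.72 in HD, 45.5% of CK (-0.80, SE 0.147, adjusted p = 9.51e-04). No CK library of these 4 genes overlapped an HD library. Gb_26293, nearly silent at MD, was at 56.4% of CK in HD (-0.72, SE 0.106, adjusted p = 1.92e-04).

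The remaining 33 members were not called between HD and CK. Their HD levels ran from 60.3% to 134% of CK (median 98.6%), and their log2 differences from -0.66 to 0.36. The 95% interval of such a difference reached a median of 0.31 to either side, and 0.64 at the widest. These intervals are not adjusted for the number of genes tested, so an interval can exclude 0 without a call. Gb_10757, for example, was not called at -0.66 (95% interval -1.27 to -0.05, limma adjusted p = 0.0656). Their median standard error was 0.141, against 0.122 in the higher and 0.094 in the lower members.

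**Figure D4:**
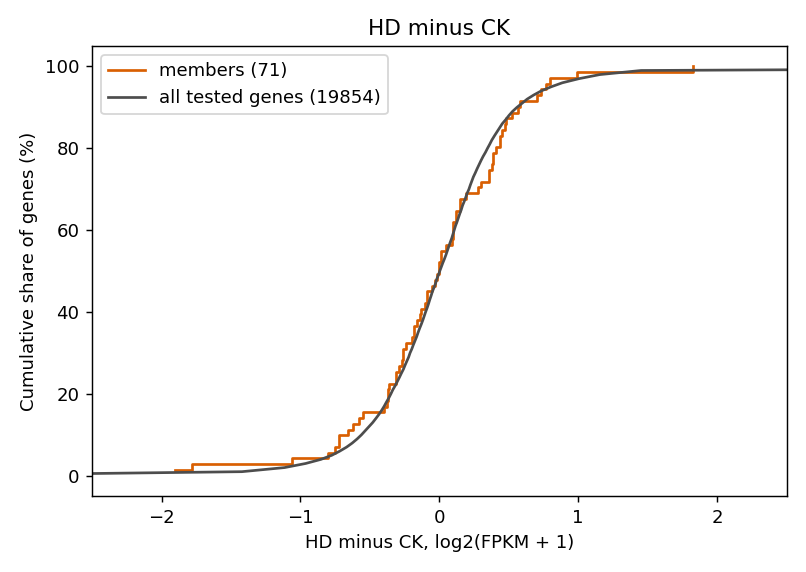
Cumulative share of genes, in percent, by HD minus CK on the log2(FPKM + 1) scale, for the 71 members (steps) and for all 19854 tested genes (line, from percentiles). The curves cross 50% at about 0 in both, with medians of 0.00 and 0.00.

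The 4 members with the highest mean over the 9 libraries were Gb_09687, Gb_03356, Gb_29559 and Gb_20395. Gb_09687 had 249, 266 and 269 FPKM in CK, 84.6, 93.0 and 86.0 in MD, and 195, 201 and 208 in HD, 77.1% of CK (log2 difference -0.37, SE 0.045, adjusted p = 4.89e-05). Gb_03356 had 218, 208 and 204 FPKM in CK, 69.7, 67.5 and 66.0 in MD, and 148, 141 and 139 in HD, 68.1% of CK (-0.55, SE 0.039, adjusted p = 7.96e-07). Gb_20395 had 164, 176 and 167 FPKM in CK, 47.4, 49.2 and 47.4 in MD, and 110, 107 and 112 in HD, 65.0% of CK (-0.62, SE 0.039, adjusted p = 3.23e-07). In these 3 genes the densities formed 3 separate bands, with HD between MD and CK. Gb_29559 differed: its 155, 144 and 133 FPKM in CK overlapped its 143, 139 and 123 in HD, with 71.0, 69.0 and 60.5 in MD. Its HD minus CK was -0.10 (95% interval -0.26 to 0.07, adjusted p = 0.315). Of the 5 members that averaged at least 100 FPKM, HD was lower than CK in 3 and higher in 1 (Gb_08604), and 1 was not called. Among tested genes of 100 to 1000 FPKM, 48.0% were lower and 29.7% higher in HD.

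The members were of low to middle abundance. Their mean FPKM over the 9 libraries had a median of 7.36 and ran from 0.801 to 184, against a median of 10.7 in all tested genes and 3.26 in the 147 genes highest at MD. In the class of 1 to 10 FPKM were 42 members (59.2%, against 45.2% of tested genes), in that of 10 to 100 FPKM 23 (32.4%, against 43.3%), and 1 member lay under 1 FPKM. A 2-fold difference on the log2(FPKM + 1) scale is harder to reach for genes near 1 FPKM, and the dip lowers the mean. The choice itself therefore bears on these shares in both ways. Calls between HD and CK in the class of 1 to 10 FPKM were 10 higher and 10 lower of 42, where tested genes of that class had 22.7% higher and 17.0% lower. In the class of 10 to 100 FPKM they were 9 higher and 5 lower of 23, against 27.9% and 33.2%.

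Over all members, replicates were about as tight as those of other genes in HD, somewhat looser in CK and clearly looser in MD. The median coefficient of variation was 7.78% in HD and 9.36% in CK, against 7.75% and 7.59% in all tested genes. In MD it was 17.6%, against 7.74%. In members with a mean of at least 10 FPKM the values for CK, MD and HD were 4.63%, 7.14% and 5.14%, against 4.95%, 4.91% and 5.03% in tested genes of that level. Within a density, the members' median deviation of a library from its group mean, on the log2 scale, ran from -0.029 (HD3) to 0.032 (HD1). Over all tested genes this median was smaller, at 0.001 in HD3 and -0.001 in HD1. In HD1, 46 of the 71 members lay above their HD mean, and in HD3 30. The same count was not made for all tested genes.

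Gene length, worked out in the same step as the reads, had a median of 969 nt in the members, 1152 nt in all tested genes and 975 nt in the genes highest at MD. The members ranged from 66 to 3920 nt. Lengths were multiples of 3 in 62 of the 71 members and in 87.5% of tested genes.

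Some members stood next to each other in the numbering of the genes, a pattern picked out after the values were seen. Consecutive numbers joined 10 of the 71 members in 5 pairs, and 20 of the 147 genes highest at MD in 10 pairs. What the numbering follows is not given in the sources used here. Gb_17374 averaged 2.66, 0.0265 and 1.21 FPKM in CK, MD and HD, and Gb_17375 averaged 38.0, 3.41 and 17.7 FPKM. Both were lower in HD than in CK, and both had a length of 1479 nt. Gb_02434 averaged 8.45, 3.71 and 13.1 FPKM in CK, MD and HD, and Gb_02435 7.84, 3.05 and 10.5 FPKM. Gb_17338 averaged 7.85, 1.45 and 11.3 FPKM and Gb_17339 23.4, 4.05 and 25.1 FPKM. MD is lowest in all of them by the choice, so only the order of HD and CK was free. HD above CK was called for Gb_02434 and Gb_17338. It was not called for their partners Gb_02435 (log2 difference 0.36, limma adjusted p = 0.0859) and Gb_17339 (0.10, limma adjusted p = 0.592). Gb_12484 averaged 1.99, 0.150 and 1.71 FPKM and Gb_12485 3.62, 0.413 and 3.16 FPKM, and Gb_24905 averaged 13.5, 5.76 and 12.6 FPKM and Gb_24906 7.28, 2.35 and 5.87 FPKM, with no call between HD and CK in any of the 4. Reads of near-identical copies can be split between them in counting, and whether these pairs are such copies was not tested.

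**Figure D5:**
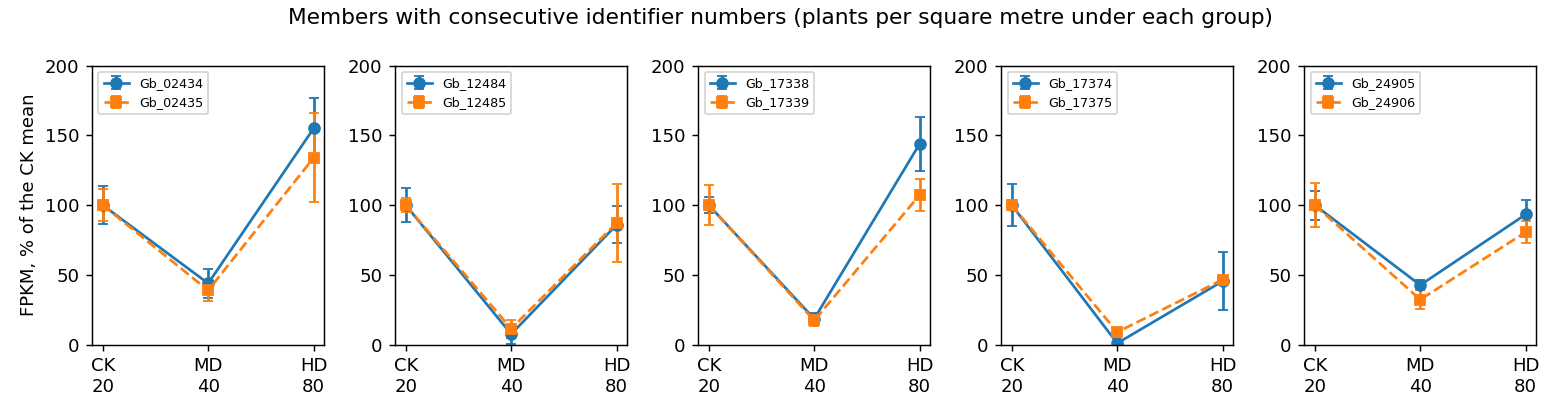
Mean FPKM by density as a percentage of the CK mean for the 5 pairs of members with consecutive identifier numbers; whiskers are the SD of 3 libraries on the same scale. Both genes of every pair are lowest at MD by the choice of the members, with HD above CK in the means of the pairs Gb_02434 and Gb_02435 and Gb_17338 and Gb_17339, and below it in the other 3.

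Next to the members in number stood 60 tested genes that were not members. Of these, 21 were called lower in MD than in CK (35.0%, against 18.6% of all tested genes) and 20 higher in HD than in MD (33.3%, against 20.4%). Both calls together were made for 11 of the 60, or 18.3%, against 1081 of 19854 tested genes, or 5.44%. The 1081 include the 71 members, and the 60 were not matched for level. Both contrasts are those that the choice of members used, and the neighbours were looked at after the values were seen. Whether reads shared between neighbours carry part of these counts was not tested. The median MD level of the 60 relative to the mean of CK and HD was -0.08 on the log2 scale, against -0.004 in all tested genes. Over all 10273 pairs of tested genes with consecutive numbers, this departure correlated between partners with a Pearson r of 0.174 and a Spearman rho of 0.143. These are correlations across genes, which share libraries and are not independent replicates.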

How the data were processed

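RNA sequencing of leaves was deposited by the authors as a table of FPKM with 1 column for each library, as per the file headers. CASAVA 1.8, TopHat2 and RSEM are the tools listed, with no role for any, per the submitters' processing notes; genome build: not given in the sources used here. Each of the 9 columns fits a sample title (0 do not). Whole reads and lengths were recovered from the FPKM steps: relative depths came from low genes with equal reads (429 to 598 genes per pair), and a gene's length was the smallest that made all its values whole within 0.001 reads plus rounding, which succeeded for all 71 members and 100.0% of 21602 genes above 0 in every library. The authors' library sizes were 0.972 to 1.042 times the read sums, a scaling that differs from total reads.

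Tests used limma 3.58.1 in R 4.3.3 on log2(FPKM + 1), letting the variance prior follow the mean level, with 1 model for all 9 libraries, over the 19854 genes with at least 1 FPKM in at least 3 libraries; calls have a Benjamini-Hochberg adjusted p under 0.05. Fold changes on this scale understate changes of low genes. Scripts were tested on simulated data. The members and the rules were chosen with earlier results of these data known. Named by rule were the 4 deepest dips on the log2(FPKM + 1) scale, the 4 largest called differences of HD from CK each way, the 4 highest means and the 2 genes just inside the threshold. Members with consecutive numbers were named in addition, after the values were seen. Only those named by rule were recomputed gene by gene under other settings. Gene lists could not be matched. Libraries of a density differed by 2.09 to 2.63 times the Poisson spread (median squared difference), so no pair agreed within counting noise, and read intervals (exact 95%) may be too narrow.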

Additional observations from a re-analysis of the deposited data

How the results depend on the processing

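Settings run were another pseudocount, other filters, 3 other scalings (upper quartile, quantiles, total reads), a replicate block, fits on the compared groups alone, robust variances, limma-voom on the recovered reads, other limits of the rule and the removal of single libraries. Membership depended most on the scale and the threshold. With a pseudocount of 0.1, 142 genes met the rule, with a difference of at least 0.8, 116, and with at least 1.5, 18; all 71 members were among the first 2 sets. Leaving out single libraries gave 66 to 80 genes, of which 60 to 70 were members. Other scalings gave 69 to 79, group means alone 73 and no limits on level 80. Called members in HD against CK ranged from 14 to 24 higher and from 13 to 20 lower over all settings. When single libraries were left out, they ranged from 14 to 21 higher and from 14 to 19 lower. Among all tested genes, calls ranged from 3900 to 6830 higher and from 4202 to 5324 lower over all settings. The 13 members and the 3900 genes came from the filter on a mean of 5 FPKM, with 50 members and 13711 genes tested. With a mean of at least 5 FPKM required, 50 members remained tested, all called in the contrasts with MD. With limma-voom, 70 of the 71 members were called lower in MD than in CK, and 71 higher in HD than in MD. With the replicate block, HD was higher than CK in 18 members and lower in 20. Of the 19854 tested genes, 4989 were then higher and 5281 lower. Among the 16 members named by rule, only Gb_29559 changed its call (-0.10, limma adjusted p = 0.0364, over other settings from -0.15 to -0.00). The other 300 of 301 recomputed values kept theirs. Equal replicate numbers were not treated as pairs: deviations correlated between -0.007 and 0.073 for equal and between -0.052 and 0.043 for unequal numbers. Depth limits the members with at most 20 reads in MD.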
